A study of Homo sapiens with 19 samples.

Results

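The MYC, MAX and MXD network is a family of transcription factors that bind DNA in pairs. Its members were taken by symbol as the 9 genes MYC, MAX, MXD1, MXD3, MXD4, MXI1, MNT, MGA and MLX, and each was found in all 3 tables, of 25365 genes for OCI-LY10, 25268 for TMD8 and 25266 for SUDHL2. These established human lines come from diffuse large B-cell lymphoma, an aggressive tumour of B cells, of the kind called activated B-cell-like. Cells of 2 groups carried an inducible short hairpin RNA labelled shEGR1#8 or shEGR1#9, directed against the immediate early transcription factor EGR1, and the control group carried an inducible control hairpin labelled shsc4. Cells of all 3 groups, controls included, received 20 ng/ml doxycycline for 2 days to switch the hairpin on. There were 9 RNA libraries of OCI-LY10, 3 in each group, and 3 libraries each under the TMD8 and SUDHL2 labels, 1 in each group. The series has 19 samples, and the 4 EGR1 chromatin immunoprecipitation and input samples were not analysed here. Whether the replicates of OCI-LY10 were grown as separate cultures is not said in the labels, and p-values speak only of how these libraries vary, which may be technical variation.

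As background, MYC activates genes of growth and division only as a dimer with MAX, and the pair recognises the E-box CACGTG. MXD1, MXD3, MXD4, MXI1 and MNT pair with MAX at the same sites and recruit SIN3 and histone deacetylases, and MGA brings MAX into a Polycomb-type repressor complex, so the set of available partners bears on what MAX does. MLX is a parallel hub that pairs with MondoA and ChREBP, the glucose-sensing factors, and with some of the MXD proteins and MNT. MYC is a frequent target of rearrangement and overexpression in diffuse large B-cell lymphoma.

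Levels are given as FPKM, sequenced fragments scaled to gene length and library size. The depth behind them is unknown. In OCI-LY10 the values of a library summed to 431993 to 445028 FPKM, and 10319 to 10499 genes reached 1 FPKM. EGR1, the labelled target, was not lower under the shEGR1 labels in OCI-LY10. It stood at 10.04, 11.4 and 20.5 FPKM under shEGR1#8 and 10.8, 11.8 and 22.7 under shEGR1#9, against 8.57, 9.59 and 12.3 in control (log2 difference 0.42, SE 0.267, limma adjusted p = 0.349). With shEGR1#8 and shEGR1#9 it was higher under the TMD8 label, at 10.8 and 9.95 FPKM, against 7.31 in control, and lower under the SUDHL2 label, at 13.7 and 15.4 FPKM, against 16.95. In OCI-LY10 and TMD8, then, EGR1 RNA does not bear out the labels on which the directions rest. The lower SUDHL2 values come from 1 library a group and were not tested, so they do not establish a knockdown there. EGR1 was highest in the third replicate of each group, and shEGR1#8 replicate 3 stood farthest from the other 8 libraries: its median absolute log2 difference from each of them, over 6989 genes, was 0.129 to 0.254, against 0.0668 to 0.173 among the others. The 6 B-cell markers were above 1 FPKM in every group, the 6 T and NK cell markers were below it everywhere. Of the B-cell markers in OCI-LY10, 1 rose and 5 did not pass: CD79A rose (log2 difference 0.65, limma adjusted p = 0.00926, not called without control replicate 2 or 3, at most 0.0549), and MS4A1 had a log2 difference of −0.25 (limma adjusted p = 0.11). Without shEGR1#8 replicate 3, 1 of them rose and 1 fell. Of 6 fibroblast and epithelial markers, EPCAM exceeded 1 FPKM in OCI-LY10 (log2 difference 0.25, limma adjusted p = 0.0794), with COL1A1, DCN and CDH1 at 0 in all 3 groups, and COL1A1 and CDH1 exceeded it in the other tables. The list summed to 6.78 to 8.68 and 6.84 to 7.79 FPKM under shEGR1#8 and shEGR1#9 in OCI-LY10, against 6.07 to 6.21 in control, to 37.9 and 37.0 FPKM in TMD8, against 29.5, and to 38.3 and 34.3 FPKM in SUDHL2, against 19.1. Of 6 myeloid markers none reached 1 FPKM in OCI-LY10, and LYZ did in all TMD8 and SUDHL2 libraries other than the TMD8 control. No erythroid or endothelial marker reached it. The part of these markers in the results below was not tested. Over 5589 genes, the TMD8 libraries with shEGR1 labels differed from the TMD8 control by a median of 0.348 to 0.399 log2 units but from the SUDHL2 libraries by 0.166 to 0.317. Short RNA genes took 62.1 and 58.0% of FPKM in these 2 libraries, against 36.3% in the TMD8 control, so differences under the TMD8 label may come from the libraries as well as from the hairpins, which cannot be told apart.

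In OCI-LY10 the network did not move as a block. With both labels together MLX fell by 0.59 and MXI1 rose by 0.33 log2 units. MXD1 and MXD4 stood higher in all 6 libraries labelled shEGR1 than in all 3 controls, as did 12.9% of the 10612 genes tested. MYC, MAX, MXD3, MNT and MGA overlapped between the groups. Of the 8 members that passed the filter of at least 1 FPKM in at least 3 libraries, 2 were called with both labels together (MXI1 higher, MLX lower), where 8.56% of the 10612 genes tested were called. With shEGR1#8 alone 2 were called, against 5.33% of genes, and with shEGR1#9 alone 1, against 5.09%. A gene was called at a limma adjusted p under 0.05, with Benjamini-Hochberg adjustment over all genes tested. In bulk RNA, fewer cells with a transcript and less of it per cell cannot be told apart. The difference with both labels is the average of the 2 hairpin contrasts, which share their 3 control libraries, and differences were taken between values of log2(FPKM + 1), so that those of weakly expressed genes are understated.

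**Figure D1:**
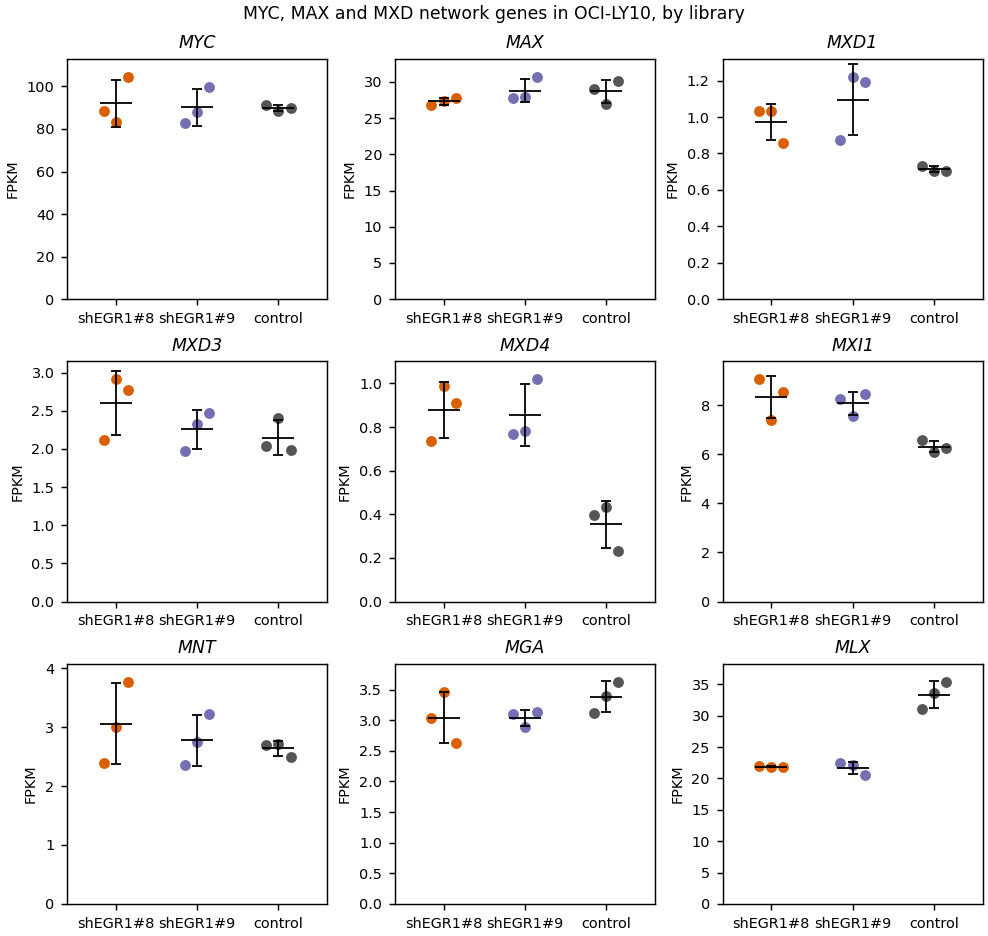
FPKM of each network gene in the 9 OCI-LY10 libraries, 1 panel per gene with its own axis from 0. Points are libraries, and bars give the mean and SD of 3. MLX lies at 20.6 to 22.5 FPKM under the shEGR1 labels and at 31.1 to 35.4 in control, MXI1 at 7.40 to 9.06 and 6.11 to 6.57, while the MYC groups overlap.

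MYC was the most abundant member and its RNA did not differ detectably between the groups. It had 88.6, 83.1 and 104.5 FPKM under shEGR1#8 and 82.9, 87.8 and 99.9 under shEGR1#9, against 91.4, 88.2 and 90.0 FPKM in control. The shEGR1 libraries lay on both sides of the controls, 2 above all of them and 3 below, and spread more widely. The 2 above were the third replicates of shEGR1#8 and shEGR1#9. Means were 92.0 ± 11.1 and 90.2 ± 8.73 FPKM under the 2 labels, against 89.9 ± 1.599 in control (SD, n = 3 each). The log2 difference with both labels was 0.01 with a 95% interval of −0.17 to 0.20 (limma adjusted p = 0.924). Over 16 alternatives it ran from −0.07, without the third replicate of every group, to 0.05, so no direction can be given. The 3 tested genes whose centred profile over the 9 libraries was most like that of MYC were STRADA, with a root mean square log2 difference of 0.0184, SUV39H1 with 0.0298 and CPSF7 with 0.0300.

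MAX, the obligate partner of MYC and of the MXD proteins, also overlapped between the groups. It had 26.8, 27.4 and 27.7 FPKM under shEGR1#8 and 27.8, 28.0 and 30.7 under shEGR1#9, against 29.0, 27.0 and 30.1 in control. The log2 difference was −0.03 with a 95% interval of −0.15 to 0.09 (limma adjusted p = 0.748). MAX overlaps FNTB and the read-through gene CHURC1-FNTB in the RefSeq annotation, and whether reads were counted by strand is not given, so reads of overlapping genes cannot be told apart.

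Among the 4 MXD genes, whose proteins compete with MYC for MAX, MXI1 was the most abundant in OCI-LY10 and rose under the shEGR1 labels. It had 9.06, 7.40 and 8.55 FPKM under shEGR1#8 and 8.23, 7.55 and 8.44 under shEGR1#9, against 6.57, 6.11 and 6.26 in control. All 6 shEGR1 libraries were above all 3 controls, as were those of 12.9% of the genes tested. Means were 8.34 ± 0.846 and 8.07 ± 0.470 FPKM under the 2 labels, against 6.31 ± 0.235 in control (SD, n = 3 each). The log2 difference was 0.33 (SE 0.068, 95% interval 0.18 to 0.49, limma adjusted p = 0.0199), with 0.35 for shEGR1#8 (adjusted p = 0.0399) and 0.31 for shEGR1#9 (adjusted p = 0.0606). With both labels MXI1 was not called when control replicate 1, 2 or 3 was left out (limma adjusted p = 0.0662, 0.0941 and 0.0985), without shEGR1#9 replicate 3 (0.0518), without the third replicate of every group (0.144) and with quantile normalization (0.0536), while the difference stayed between 0.28 and 0.37 over the 16 alternatives. The call with shEGR1#8 alone was kept without shEGR1#8 replicate 2 and lost without any other single library (limma adjusted p = 0.062 to 0.144).

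MXD1 and MXD4, the MXD genes best known from differentiating cells, were near or under 1 FPKM. MXD1 had 1.03, 1.03 and 0.859 FPKM under shEGR1#8 and 0.875, 1.22 and 1.19 under shEGR1#9, against 0.731, 0.705 and 0.703 in control. MXD4 had 0.737, 0.990 and 0.908 FPKM under shEGR1#8 and 0.766, 0.780 and 1.02 under shEGR1#9, against 0.398, 0.433 and 0.233 in control. For both genes all 6 shEGR1 libraries were above all 3 controls, as were those of 12.9% of the genes tested. MXD4 is not among the genes of that share. MXD1 passed the filter only through 4 libraries with shEGR1 labels, so it had to be higher there to be tested at all, and its log2 difference of 0.25 (SE 0.079) did not pass (limma adjusted p = 0.0917, and 0.0314 with array weights). MXD4 did not pass the filter. Fitted without a filter its log2 difference was 0.46 (SE 0.072, limma adjusted p = 0.0134), and 0.47 and 0.45 for shEGR1#8 and shEGR1#9 (limma adjusted p = 0.0301 and 0.0339). The number of fragments behind values this low is unknown. MXD1 overlaps ASPRV1 in the annotation.

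MXD3, the family member tied to the S phase of dividing cells, overlapped between the groups. It had 2.12, 2.91 and 2.77 FPKM under shEGR1#8 and 1.97, 2.33 and 2.47 under shEGR1#9, against 2.04, 2.41 and 1.99 in control. The log2 difference was 0.12 with a 95% interval of −0.09 to 0.33 (limma adjusted p = 0.444). It overlaps PRELID1, which was far more abundant at 201 ± 27.1, 192 ± 5.20 and 195 ± 12.9 FPKM (shEGR1#8, shEGR1#9 and control, SD, n = 3 each).

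MNT and MGA, the larger MAX-binding repressors, did not differ detectably. MNT had 2.39, 3.01 and 3.77 FPKM under shEGR1#8 and 2.36, 2.74 and 3.23 under shEGR1#9, against 2.70, 2.72 and 2.49 in control (log2 difference 0.10, 95% interval −0.16 to 0.35, limma adjusted p = 0.612). Its shEGR1 libraries lay on both sides of the controls, and the sign of its difference changed over the 16 alternatives (−0.04 to 0.16). MGA had 3.03, 3.46 and 2.63 FPKM under shEGR1#8 and 3.10, 2.89 and 3.13 under shEGR1#9, against 3.12, 3.40 and 3.63 in control (log2 difference −0.12, 95% interval −0.29 to 0.05, limma adjusted p = 0.354). In 4 of the 6 shEGR1 libraries MGA was below all controls, and the other 2 lay among them.

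MLX, the hub of the parallel branch, showed the largest difference of the members tested and fell. It had 22.0, 21.9 and 21.8 FPKM under shEGR1#8 and 22.5, 22.1 and 20.6 under shEGR1#9, against 31.1, 33.6 and 35.4 in control. All 6 shEGR1 libraries were below all 3 controls, as were those of 8.22% of the genes tested, and the gap between the groups was wider than the spread within either. Means were 21.9 ± 0.127 and 21.7 ± 0.971 FPKM under the 2 labels, against 33.4 ± 2.18 in control (SD, n = 3 each). The log2 difference was −0.59 (SE 0.054, 95% interval −0.71 to −0.47, limma adjusted p = 0.00049), 0.664-fold on this scale, which was the 68th largest fall among the 10612 genes. It was −0.58 for shEGR1#8 (limma adjusted p = 0.00175) and −0.60 for shEGR1#9 (limma adjusted p = 0.00142). Over the 16 alternatives it ran from −0.64 to −0.53 and the call held in each. MLX overlaps PSMC3IP, a recombination cofactor gene, whose level was 5.78 ± 0.819, 7.14 ± 0.261 and 6.54 ± 0.670 FPKM (shEGR1#8, shEGR1#9 and control, SD, n = 3 each; log2 difference −0.02, limma adjusted p = 0.899). MLXIP, which encodes the MLX partner MondoA, did not pass (log2 difference 0.14, limma adjusted p = 0.342), with 6.95 ± 1.06, 7.08 ± 0.424 and 6.27 ± 0.420 FPKM.

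Promoters of the members, from RefSeq on GRCh38.p14 and spanning 250 bases before to 50 after the start of transcription, were found for 8 of the 9 genes, 13 promoters in all. The E-box CACGTG, which reads the same on both strands, was in the window of MLX at bases −50 to −45, of MXD4 at −238 to −233 and of MNT at −193 to −188, counted from the start. It is in 7.26% of the 35116 promoters of the same length. The EGR1 motif GCGGGGGCG, searched on both strands, was in the window of MNT alone, at −65 to −57 (5.07% of all promoters), and its variant GCGTGGGCG was in none of the 13 (0.795% of all). Letters in a window are not evidence of binding. The 3 promoters are shown because they hold these motifs and because MLX fell, MXD4 was higher in all shEGR1 libraries and MNT overlapped. Capitals mark the E-box and, in MNT, also the EGR1 motif. The MLX window is chr17:42566850-42567149 on the plus strand, that of MXD4 chr4:2262060-2262359 on the minus strand and that of MNT chr17:2401011-2401310 on the minus strand, each written 5′ to 3′ on the strand of the gene.
MLX: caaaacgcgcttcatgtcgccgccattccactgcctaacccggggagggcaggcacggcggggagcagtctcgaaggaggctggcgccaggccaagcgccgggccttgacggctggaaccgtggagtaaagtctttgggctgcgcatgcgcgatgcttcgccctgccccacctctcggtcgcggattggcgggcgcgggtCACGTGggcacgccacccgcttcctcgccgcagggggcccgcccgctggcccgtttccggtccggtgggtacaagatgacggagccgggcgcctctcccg
MXD4: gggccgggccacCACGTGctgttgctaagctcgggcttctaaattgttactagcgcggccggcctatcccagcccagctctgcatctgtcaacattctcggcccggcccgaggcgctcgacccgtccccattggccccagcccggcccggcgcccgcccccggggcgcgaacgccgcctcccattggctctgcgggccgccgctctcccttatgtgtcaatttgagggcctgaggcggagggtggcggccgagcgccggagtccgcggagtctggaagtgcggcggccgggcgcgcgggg
MNT: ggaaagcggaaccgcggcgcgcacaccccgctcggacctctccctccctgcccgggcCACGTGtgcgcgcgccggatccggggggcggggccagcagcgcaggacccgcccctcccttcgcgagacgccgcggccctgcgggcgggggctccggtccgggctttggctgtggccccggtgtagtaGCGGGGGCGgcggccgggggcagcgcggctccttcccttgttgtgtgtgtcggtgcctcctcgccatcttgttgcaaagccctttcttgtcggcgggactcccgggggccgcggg

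In OCI-LY10 the order of the members by level changed at MLX. In the shEGR1 groups the order was MYC, MAX, MLX, MXI1, then MGA, MNT and MXD3, whose ranges overlapped their neighbours', then MXD1 and MXD4, which overlapped, so that 5 of 8 neighbouring pairs were apart in each group. In control it was MYC, MLX, MAX, MXI1, MGA, MNT, MXD3, MXD1 and MXD4, and the ranges of all 8 neighbouring pairs were apart. The ratio of MAX to MLX within a library was 1.22 to 1.27 under shEGR1#8 and 1.24 to 1.49 under shEGR1#9, against 0.803 to 0.932 in control, so MAX exceeded MLX in all shEGR1 libraries and in no control. The 4 MXD genes summed to 12.9, 12.3 and 13.1 FPKM under shEGR1#8 and 11.8, 11.9 and 13.1 under shEGR1#9, against 9.73, 9.65 and 9.18 in control, and MXI1 made up 60.0 to 70.0% of that sum in the 9 libraries. MYC exceeded this sum 6.73- to 7.98-fold under shEGR1#8 and 6.998- to 7.61-fold under shEGR1#9, against 9.14- to 9.81-fold in control. MYC over MAX overlapped between the groups, at 3.03 to 3.77 and 2.99 to 3.25 under the 2 labels against 3.00 to 3.27 in control. The other tables showed these shifts only in part. MYC over the MXD sum was not lower with both labels in either of them. MAX over MLX was higher with both labels under the TMD8 label, but with shEGR1#8 alone under the SUDHL2 label. MYC over the MXD sum was 3.27 and 3.68 with shEGR1#8 and shEGR1#9 under the TMD8 label, against 2.97 in control. Under the SUDHL2 label it was 4.28 and 4.16, against 4.17. MAX over MLX was 2.34 and 1.95 under the TMD8 label, against 1.79 in control, and 2.14 and 1.62 under the SUDHL2 label, against 1.63. These ratios and sums are descriptions of RNA and carry no test. They are made of the member values given above, so they are no further evidence beside the differences of MLX and MXI1. How often ratios of other genes separate the groups was not counted.

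**Figure D2:**
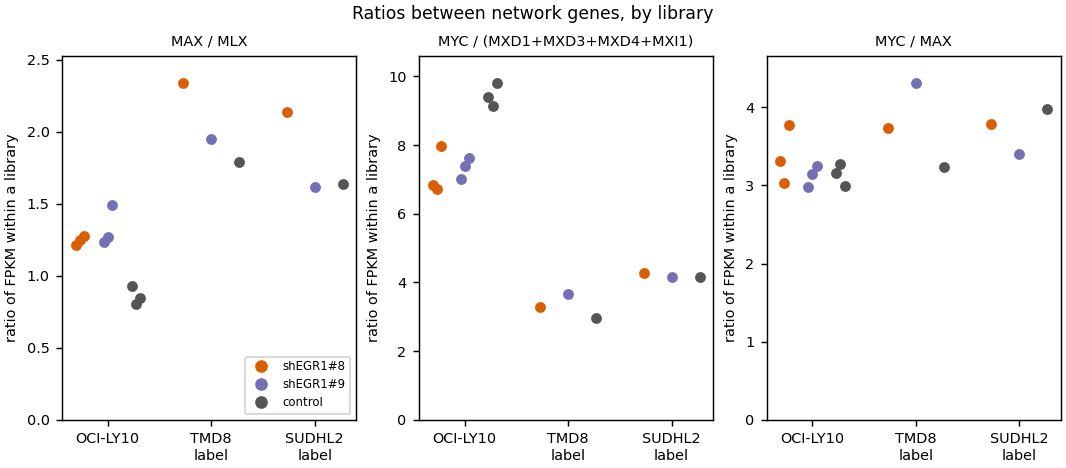
Ratios of FPKM between network genes within each of the 15 libraries, axes from 0, 1 point per library. In OCI-LY10, MAX over MLX is 1.22 or more under the shEGR1 labels and at most 0.932 in control. There MYC over the sum of the 4 MXD genes is at most 7.98 and at least 9.14, and MYC over MAX overlaps. With shEGR1#8 and shEGR1#9, MYC over that sum is 3.27 and 3.68 in TMD8, against 2.97, and 4.28 and 4.16 in SUDHL2, against 4.17. MAX over MLX is 1.79 and 1.63 in the TMD8 and SUDHL2 controls.

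The 2 hairpin labels did not differ from each other in any of the 8 members tested. In the contrast of shEGR1#9 with shEGR1#8 each had a limma adjusted p of 1, and none of the 10612 genes was called (267 had an unadjusted p under 0.05). For MLX the log2 difference was −0.01 with a 95% interval of −0.15 to 0.13, for MXI1 −0.04 (−0.22 to 0.14) and for MYC −0.03 (−0.24 to 0.19). The widest interval among the members was that of MNT, −0.39 to 0.20, so differences of that size between the labels cannot be told from none.

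With 1 library a group, the TMD8 and SUDHL2 tables give values without a test. Differences there are log2 differences less the median difference over all genes with at least 1 FPKM in a library, and genes past 1.5-fold were counted. Under the TMD8 label 3 of the 9 members were past 1.5-fold with shEGR1#8 and 3 with shEGR1#9, where 33.2 and 31.6% of genes were, a share near the background. Under the SUDHL2 label 1 member was past it with shEGR1#8 and 0 with shEGR1#9, where 9.96 and 17.9% of genes were.

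MLX was lower with both labels in the TMD8 table but not in the SUDHL2 table. Under the TMD8 label it had 10.5 and 13.1 FPKM in the libraries labelled shEGR1#8 and shEGR1#9, against 19.95 in control, differences of −0.78 and −0.58 log2 units, of which the first was past 1.5-fold. With FPKM rescaled to a common total after leaving out short RNA genes they were −0.46 and −0.28, and neither was. Under the SUDHL2 label it had 14.7 and 20.9 FPKM, against 19.3 in control (−0.38 and 0.10). Of all genes, 22.2 and 32.5% were at least as far from control as MLX with shEGR1#8 and shEGR1#9 in TMD8. In SUDHL2 that share was 22.6 and 80.25%.

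MXI1 went opposite ways under the other 2 labels. Under the TMD8 label it had 2.94 and 3.55 FPKM with shEGR1#8 and shEGR1#9, against 6.30 in control (−0.80 and −0.68, or −0.54 and −0.42 with the rescaled total). Under the SUDHL2 label it had 3.38 and 3.28 FPKM, against 2.50 in control (0.31 and 0.28). The direction in OCI-LY10 was thus that of the SUDHL2 table and not of the TMD8 table. Of all genes, 21.1 and 24.5% were at least as far from control as MXI1 with shEGR1#8 and shEGR1#9 in TMD8. In SUDHL2 that share was 29.5 and 48.5%.

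MXD1 and MXD4 were higher with each shEGR1 label in all 3 tables, at low levels and in places by little. MXD4 with shEGR1#9 under the SUDHL2 label differed by 0.05 log2 units, and MXD1 with shEGR1#9 under the TMD8 label by 0.10. Of all genes, 89.6 and 86.8% were at least as far from control. For the other differences of these genes in the TMD8 and SUDHL2 tables that share was 8.70 to 56.1%. MXD1 had 1.25 and 1.04 FPKM with shEGR1#8 and shEGR1#9 under the TMD8 label, against 0.903 in control, and 1.43 and 1.15 under the SUDHL2 label, against 0.568. MXD4 had 0.832 and 1.10 FPKM under the TMD8 label, against 0.521 in control, and 1.23 and 0.870 under the SUDHL2 label, against 0.793. MXD1 with shEGR1#8 under the SUDHL2 label (0.63 log2 units) was the only one of these past 1.5-fold. With a pseudocount of 0.1, MXD1 with shEGR1#9 under the SUDHL2 label (0.896) and MXD4 with both labels in TMD8 (0.686 and 0.945) were past it too.

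MGA was the member farthest from its control in the TMD8 table. It had 11.4 and 6.35 FPKM with shEGR1#8 and shEGR1#9 there, against 3.50 in control (1.55 and 0.70 log2 units), and 4.18 and 23.4% of genes were at least as far from control. Under the SUDHL2 label it had 5.96 and 6.70 FPKM, against 6.60 in control. MNT stood at 2.79 and 4.80 FPKM under the TMD8 label, against 2.80 in control, and at 3.75 and 5.20 under the SUDHL2 label, against 3.76. Relative to the median gene its differences with shEGR1#8 and shEGR1#9 were 0.08 and 0.60 under the TMD8 label and −0.01 and 0.37 under the SUDHL2 label.

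MYC, MAX and MXD3 differed by less than 1.5-fold in both tables. MYC had 91.9 and 110.3 FPKM with shEGR1#8 and shEGR1#9 under the TMD8 label, against 115.4 in control, and 119.0 and 114.8 under the SUDHL2 label, against 125.5. MAX had 24.6 and 25.6 FPKM under the TMD8 label, against 35.7 in control, and 31.5 and 33.8 under the SUDHL2 label, against 31.6. MXD3 had 23.1 and 24.3 FPKM under the TMD8 label, against 31.1 in control, and 21.8 and 22.3 under the SUDHL2 label, against 26.3.

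**Figure D3:**
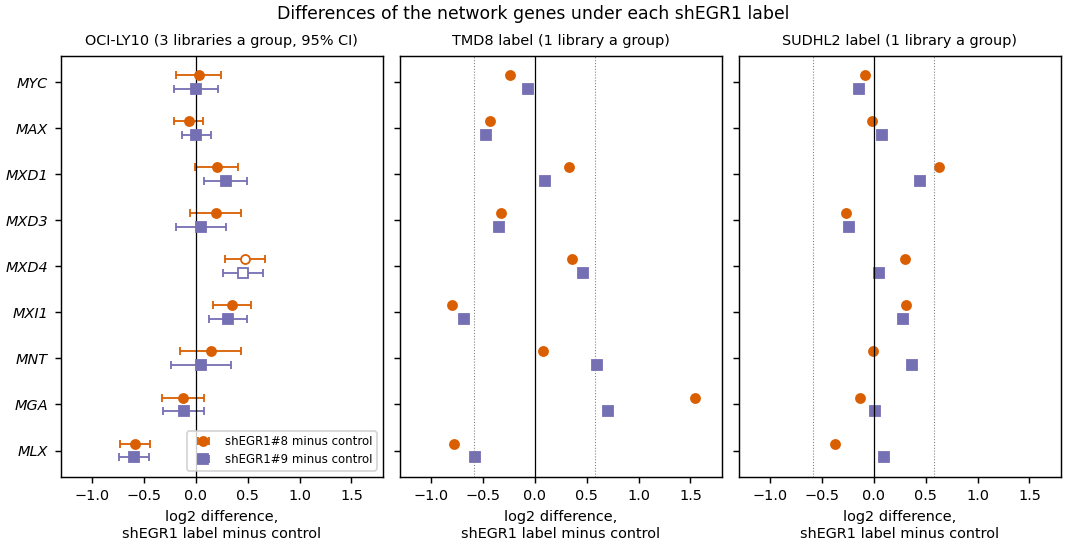
Log2 differences of shEGR1#8 and shEGR1#9 from control for each network gene. OCI-LY10 points carry 95% limma intervals (open symbols: MXD4, fitted without the filter); TMD8 and SUDHL2 points are single libraries less the median gene, with dotted lines at 1.5-fold. MLX is at −0.58 and −0.60 in OCI-LY10, −0.78 and −0.58 in TMD8 and −0.38 and 0.10 in SUDHL2.

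The balance within the MXD genes differed between the tables, which may have been normalized separately, so that levels across them are descriptions. MXD3 was at 1.97 to 2.91 FPKM in the 9 OCI-LY10 libraries but at 21.8 to 31.1 FPKM in the 6 libraries of the other labels. There it made up 78.3 to 87.2% of the MXD sum, while MXI1, the leading MXD gene in OCI-LY10, made up 8.31 to 16.2%. Short RNA genes took 0.461 to 0.603% of FPKM in the OCI-LY10 libraries and 36.3 to 62.1% in the others. PRELID1, which MXD3 overlaps, was at 170.8 to 223.7 FPKM in OCI-LY10 and at 50.1 to 89.7 in the others. The part of the libraries and of this overlap in the MXD3 levels was not tested. Under the TMD8 label the order by median level was MYC, MAX, MXD3, MLX, MGA, MXI1, MNT, MXD1 and MXD4, and under the SUDHL2 label MYC, MAX, MXD3, MLX, MGA, MNT, MXI1, MXD1 and MXD4, with 3 and 7 of the 8 neighbouring pairs apart over 3 libraries. MYC was first in every library. MXD4 was last by median in each table, but its range over the libraries of a table overlapped that of MXD1.

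**Figure D4:**
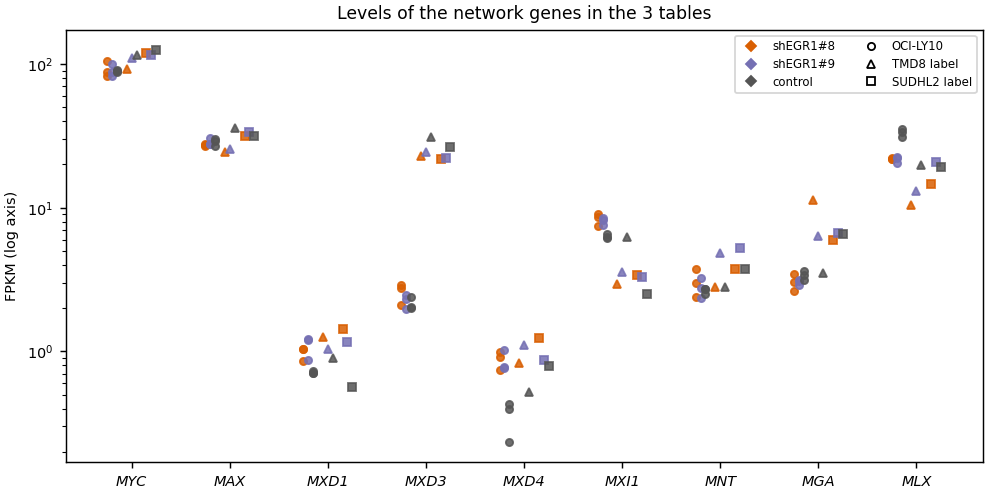
FPKM of the 9 network genes in all 15 libraries on a log axis, 1 symbol per library, by table and label. MXD3 separates the tables, with at most 2.91 FPKM in OCI-LY10 and at least 21.8 elsewhere, whereas MYC stays between 82.9 and 125.5 FPKM. The tables also differ in the share of short RNA genes, at most 0.603% of FPKM in OCI-LY10 and at least 36.3% elsewhere.

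Partners, cofactors and targets of the network were described in OCI-LY10 from lists, by their counts and medians beside a median log2 difference of 0.03 over all 10612 genes. Of these genes 5.84% rose and 2.71% fell with both labels. All of the lists were chosen with earlier results of these data known. Among the other network factors, most of which bind the same or related sites, 1 of 7 tested rose and none fell, with a list median of 0.25. HEXIM1, which is not such a DNA-binding factor, is counted in this list and its median (log2 difference 0.28, limma adjusted p = 0.0827). TFE3, a nutrient-sensing relative that binds E-boxes, was the one that rose, to 10.2 ± 0.587 and 10.3 ± 0.322 FPKM under shEGR1#8 and shEGR1#9, against 8.44 ± 0.523 in control (SD, n = 3 each; log2 difference 0.25, limma adjusted p = 0.0276). With median-ratio scaling or quantile normalization it was not called (limma adjusted p = 0.0507 and 0.0973).

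Of 18 MYC cofactors tested, 1 fell and none rose, with a median of 0.09. WDR5, the chromatin adaptor that anchors MYC at its targets, fell to 32.8 ± 2.18 and 33.3 ± 0.180 FPKM under shEGR1#8 and shEGR1#9, against 39.9 ± 1.09 in control (log2 difference −0.27, limma adjusted p = 0.0158). Of 17 SIN3 and histone deacetylase corepressor genes tested, none was called, and the median was −0.01. The smallest p among them was that of ING2, a histone-reading subunit (log2 difference −0.17, limma adjusted p = 0.101; 6.47 ± 0.374 and 6.70 ± 0.407 FPKM, against 7.52 ± 0.146 in control). Of 10 genes of the Polycomb-type complex that holds MGA, 1 fell, and the median was −0.06. RYBP, a subunit shared by such complexes, fell to 6.75 ± 0.567 and 6.80 ± 0.658 FPKM, against 8.52 ± 0.299 in control (log2 difference −0.29, limma adjusted p = 0.035).

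Of 16 genes tested that govern the stability of the MYC protein, 1 rose and 2 fell, with a median of −0.01. SKP2, a ubiquitin ligase subunit that targets MYC and the cell cycle inhibitor p27, fell to 5.92 ± 1.06 and 5.76 ± 0.0769 FPKM under shEGR1#8 and shEGR1#9, against 11.1 ± 0.320 in control (log2 difference −0.83, limma adjusted p = 0.00105). TRIM32, a ubiquitin ligase that acts on MYC in mouse neural progenitors, fell to 6.38 ± 0.421 and 6.13 ± 0.223 FPKM, against 7.43 ± 0.0927 in control (log2 difference −0.22, limma adjusted p = 0.04). PIM2, a kinase whose family phosphorylates MYC, rose to 471 ± 68.9 and 449 ± 31.0 FPKM, against 358 ± 11.4 in control (log2 difference 0.35, limma adjusted p = 0.0431, and 0.0661 with median-ratio scaling).

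The list of genes known to be induced by MYC had a median below that of all genes. The list of genes known to be repressed by it had one above, while no difference in MYC RNA was detected. Both lists were chosen with earlier results of these data known, so their medians and counts are descriptions only. The activity of the MYC protein was not tested. Of 44 induced targets tested, 7 fell, none rose and 37 did not pass, with a median of −0.08. PTMA, an abundant nuclear protein gene with processed pseudogenes that make its level uncertain, fell to 1230.0 ± 53.6 and 1238 ± 116 FPKM under shEGR1#8 and shEGR1#9, against 2187 ± 57.4 in control (log2 difference −0.83, limma adjusted p = 0.000265). The ribosome assembly gene MRTO4, the cyclin gene CCND2 and the transferrin receptor gene TFRC had log2 differences of −0.35, −0.33 and −0.30 and also fell (limma adjusted p = 0.0128, 0.00571 and 0.0343), though TFRC was not called with quantile normalization (0.051). Without the third replicate of every group 2 members of this list fell, and without shEGR1#8 replicate 3 alone 11 did.

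Of the 8 repressed targets that passed the filter, of 12 in the list, 4 rose and none fell, with a median of 0.16. CDKN1A, the p21 gene, whose product halts the cell cycle, rose to 49.9 ± 4.43 and 47.6 ± 2.77 FPKM under shEGR1#8 and shEGR1#9, against 23.4 ± 1.76 in control (log2 difference 1.03, limma adjusted p = 0.000182). The antiproliferative gene BTG2 rose to 104.9 ± 3.77 and 100.3 ± 3.26 FPKM, against 71.2 ± 3.43 in control (log2 difference 0.52, limma adjusted p = 0.000606). The stress-responsive gene NDRG1 rose by 0.26 log2 units (limma adjusted p = 0.0479) and was not called with median-ratio scaling (0.0737) or quantile normalization (0.141).

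Of the 6 targets of MLX and MondoA tested, of 8 in the list, 1 rose and 1 fell and 4 did not pass, with a median of −0.02. TXNIP, which restrains glucose uptake and is also in the repressed list, rose to 9.59 ± 0.489 and 9.76 ± 0.341 FPKM under shEGR1#8 and shEGR1#9, against 7.50 ± 0.374 in control (log2 difference 0.33, limma adjusted p = 0.00872). KLF10, a zinc finger repressor gene, fell to 7.24 ± 0.552 and 7.05 ± 0.379 FPKM, against 8.61 ± 0.403 in control (log2 difference −0.24, limma adjusted p = 0.046).

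With each of the 9 libraries left out in turn, the calls of SKP2, PTMA, CCND2, CDKN1A and BTG2 held. TXNIP lost its call without control replicate 1 (limma adjusted p = 0.0549). WDR5 and MRTO4 lost theirs without any one of the 3 controls (at most 0.0881 and 0.0769). TFRC was also not called without shEGR1#9 replicate 2 or 3, TFE3 and TRIM32 without any of the 3 shEGR1#9 libraries, and RYBP without shEGR1#8 replicate 2 or shEGR1#9 replicate 1 or 2, each of the 4 likewise without any one control (limma adjusted p at most 0.139, 0.131, 0.171 and 0.160). PIM2, KLF10 and NDRG1 lost the call without any control, any shEGR1#9 library, and shEGR1#8 replicate 1 for PIM2, replicate 2 for KLF10 and replicate 1 or 3 for NDRG1 (at most 0.152, 0.187 and 0.186).

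**Figure D5:**
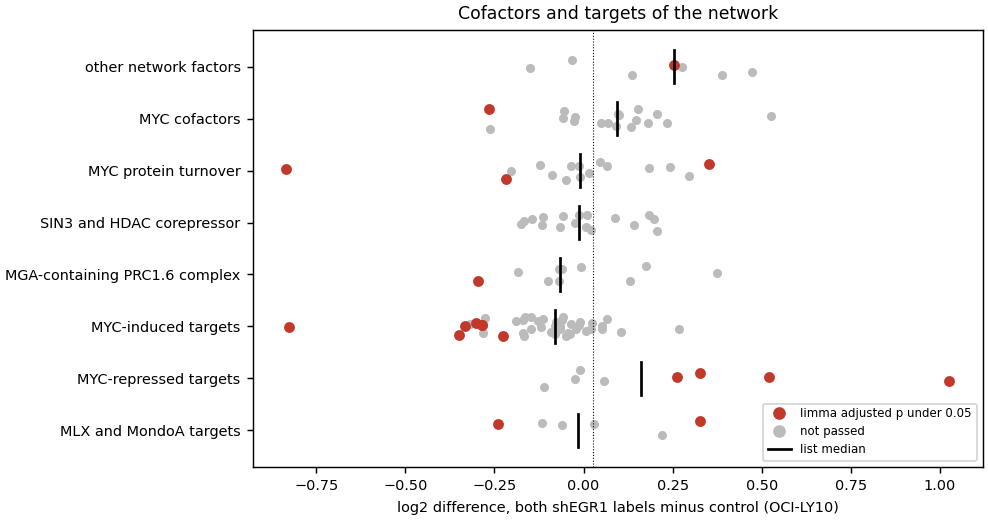
Log2 difference with both shEGR1 labels from control in OCI-LY10 for each tested gene of the lists of partners, cofactors and targets; coloured points have a limma adjusted p under 0.05, bars are list medians and the dotted line is the median of all genes (0.03). CDKN1A at 1.03 and SKP2 and PTMA at −0.83 lie farthest out, and the list medians lie between −0.08 and 0.25.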

How the data were processed

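The authors deposited 1 table per cell line with a value per gene and library, read here as FPKM. Neither labels nor headers name the unit, so this reading rests on the values. The genome build was hg19, and Bowtie2, HISAT and StringTie are named as tools, per the submitters' processing notes. Their versions, the annotation, strand setting and scaling: not given in the sources used here. Per the labels, a TruSeq RNA kit was used. The number of reads is unknown, so no counting intervals are given. Lines with repeated names (4, 8 and 10 in the OCI-LY10, TMD8 and SUDHL2 tables), 1 malformed TMD8 line and 430 SUDHL2 lines joined from another table were left out.

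In OCI-LY10, log2(FPKM + 1) of genes with at least 1 FPKM in at least 3 of 9 libraries was fitted by group, with a mean-variance trend, in limma 3.58.1 under R 4.3.3, and p-values were adjusted by Benjamini-Hochberg over 10612 genes. The fit was run on simulated data with independent noise in each library and the same effect in all shEGR1 libraries. Those data hold no libraries that deviate together, so they do not cover that case. The TMD8 and SUDHL2 tables had 1 library a group and no test. All members are named, and of each list up to 4 called genes with the largest difference, or the 1 with the smallest p. The members and lists were chosen with earlier results of these data known. Alternatives were pseudocount 0.1, no filter, median-ratio scaling, quantile normalization, array weights, a replicate block, each library left out and, chosen after seeing the data, the third replicate of every group left out.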

Additional observations from a re-analysis of the deposited data

Results flagged for a closer look

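MXI1 was higher in all 6 OCI-LY10 libraries with shEGR1 labels than the mean of their controls and lower in both such TMD8 libraries than theirs. The mean log2 differences from control, relative to the median gene, were 0.30 in OCI-LY10 and −0.74 in TMD8, 1.05 apart. It was higher in both SUDHL2 libraries with shEGR1 labels, by a mean of 0.30, so that TMD8 and SUDHL2 were −1.04 apart. MGA, also relative to the median gene, was lower than the control mean in all 6 OCI-LY10 libraries with shEGR1 labels and higher in both in TMD8, by means of −0.15 and 1.12, which are −1.27 apart. In FPKM as deposited, shEGR1#8 replicate 2 of OCI-LY10 (3.46) lay above the control mean of MGA (3.38). These differences between cell lines were not tested, since TMD8 and SUDHL2 have 1 control library each, and the TMD8 control is the library that stood apart from the others of that table. Groups of 3 or fewer libraries allow no check for a single far value.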

How the results depend on the processing

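In OCI-LY10, 2 members were called with both labels, where 8.56% of the 10612 genes were. Without a filter 3 were called, over 16095 genes, and the third was MXD4. With array weights 3 were called, while the calls over all genes also grew in number, as given below. The third was MXD1, which passed the filter only through libraries with shEGR1 labels. The count was 1 with quantile normalization, 1 without the third replicate of every group, and 1 to 2 with a library left out. With shEGR1#8 the count of 2 became 1 with median-ratio scaling, quantile normalization, array weights and without the third replicates, and 1 to 2 with a library left out. With shEGR1#9 the count of 1 became 2 without a filter, 3 with array weights, and 1 to 2 with a library left out. MLX was called in each of the 16 alternatives, also by each label alone, so the lost calls were those of MXI1. With shEGR1#8 alone MXI1 lost its call in 13 of the 16, and with shEGR1#9 alone it gained one in 4 (limma adjusted p over all 16 was 0.0206 to 0.199 and 0.0168 to 0.266). The 620 genes called higher became 1287 with array weights, 260 without the third replicates and 206 to 876 with a library left out, and the 288 called lower became 627, 108 and 73 to 442. Of the member values taken one by one, 624 stayed on the same side of the threshold or within the spread, 19 lost a call, 6 gained one, 7 moved and none reversed a called direction. In TMD8 the 3 members past 1.5-fold with shEGR1#8 became 1 with a common total without short RNA genes, and the 3 with shEGR1#9 became 5 with pseudocount 0.1. In SUDHL2 the 0 with shEGR1#9 became 1 with pseudocount 0.1. The cause was not tested. The median of all genes moved from 0.03 to 0.00 with median-ratio scaling and −0.01 with quantile normalization.

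Replicate numbers did not pair the samples across all 3 groups. Libraries with the same number deviated together with r of −0.188 to 0.260 in 9 pairs, of which 3 exceeded 0.1. These 3 were the pairs of shEGR1#8 with shEGR1#9, at 0.173, 0.134 and 0.260 for replicates 1, 2 and 3. In the 18 pairs with different numbers r was −0.269 to 0.184, and 4 exceeded 0.1. With the replicate number as a block, 2 members were called with both labels, 2 with shEGR1#8, 1 with shEGR1#9 and 0 between the labels, 537 genes were called higher and 238 lower, and no call of a member changed. Of the other genes named as called, TRIM32, RYBP and KLF10 were not called with the block (limma adjusted p = 0.0744, 0.0617 and 0.0769). MLX stood at −0.59 (limma adjusted p = 0.00391) and MXI1 at 0.33 (0.0206). The unknown depth limits MXD1 and MXD4 most, at about 1 FPKM or less.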

Other observations

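COASY, the coenzyme A synthase gene that neighbours MLX, was examined after the values were seen. It had 33.7 ± 6.07 and 33.5 ± 1.57 FPKM under shEGR1#8 and shEGR1#9, against 42.8 ± 1.604 in control (SD, n = 3 each). For COASY all 6 shEGR1 libraries were below all 3 controls, as were those of 8.22% of the genes tested. Its log2 difference of −0.35 did not pass (SE 0.094, limma adjusted p = 0.0546).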
